A study of Mus musculus with 16 samples.

Results

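The transcripts described here are 32 genes known for their expression in leukocytes and macrophages, measured in polysome RNA of mouse podocytes and glomeruli. They were taken from a list of gene symbols, and a gene was counted as measured when the accession of a probe on the array mapped to its symbol. All 32 had a probe, 41 probes in all, and all 32 were among the 14574 genes tested. The list runs from genes of nearly all leukocytes (Ptprc, Laptm5, Cd52, Cd53, Coro1a, Lcp1, Arhgap15) through receptors, adaptors and products of macrophages to markers of T cells (Cd3e, Cd3g) and B cells (Cd79a, Ms4a1).

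Podocytes are the epithelial cells that wrap the glomerular capillaries, and they do not belong to the blood lineage. Resident macrophages and circulating leukocytes lie in the kidney around and inside these capillaries, and a leukocyte transcript in a podocyte preparation is commonly read as a measure of RNA from other cells. Some of the receptors here, such as those that bind antibody, signal through the adaptors Tyrobp and Fcer1g, which carry activation motifs into the cell. Others, among them Cd14, Mrc1, Cx3cr1 and Csf1r, recognise microbial products, sugars, a chemokine or a growth factor. The factor Spi1, also called PU.1, drives transcription of much of the set in the myeloid lineage.

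RiboTag mice carry an HA-tagged ribosomal protein in cells where Cre recombinase is active, so that tagged ribosomes with their mRNA can be pulled down with an antibody. In the study the Nphs1 gene, which encodes the podocyte protein nephrin, drove Cre, and all mice carried this pair of alleles on the C57BL/6N background. There were 4 groups of 4 arrays: HA-precipitated podocyte RNA of normal mice, HA-precipitated podocyte RNA of mice 4 days and 7 days after the immunotoxin LMB2, and unprecipitated glomerular RNA of normal mice. A single injection of LMB2, 0.625 ng per g body weight in the tail vein, went to mice that also had NEP25, a transgene that puts human CD25, the target of LMB2, on podocytes. NEP25 was therefore present in the LMB2 mice and is not described for the normal mice, and no LMB2 glomerular RNA was analysed here. Glomerular RNA includes podocyte RNA.

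Each sample was hybridised to a 1-colour Agilent array. A level below is the log2 processed intensity of the gene's probe minus the 75th percentile of its array, and a difference is one such level minus another. Spots flagged as well above background made up 49.3% to 57.5% of each array. Nphs1 averaged 7.80 ± 0.21 in normal podocyte RNA and 5.48 ± 0.35 in glomerular RNA, and Wt1, a podocyte transcription factor, 8.63 ± 0.07 and 6.33 ± 0.19 (SD, n = 4 each). The endothelial gene Pecam1 averaged -1.64 ± 0.24 in normal podocyte RNA and 2.37 ± 0.08 in glomerular RNA. The order of these markers fits the labels of the groups. The podocyte gene Podxl averaged 7.75 ± 0.09 and 5.38 ± 0.17 in the same groups, and the endothelial genes Kdr and Emcn 3.20 ± 0.61 and 0.49 ± 0.32 in normal podocyte RNA, against 6.86 ± 0.22 and 5.76 ± 0.10 in glomerular RNA. Per the file headers, the 8 arrays of both normal groups lay on 1 slide and the 8 LMB2 arrays on another, so an LMB2 difference cannot be told apart from a slide difference or from the NEP25 transgene. The podocyte and glomerular arrays were compared within 1 slide, and so were days 7 and 4. Whether the 4 arrays of a group come from separate animals is not labelled, so p-values measure the spread between samples.

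Of the 32 genes, 30 were well above background on all 4 glomerular arrays, 13 on all 4 normal podocyte arrays, 14 on all 4 day 4 arrays and 16 on all 4 day 7 arrays. On the normal podocyte arrays 11 genes were never well above background. A gene was tested when its probe exceeded background on every array of 1 or more groups. For 15 of the genes that group was the glomerular group alone, so the filter favoured a lower level in podocyte than in glomerular RNA for these genes. Spi1 passed through the day 7 arrays alone, and 12 genes were well above background on all 16 arrays.

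**Figure D1:**
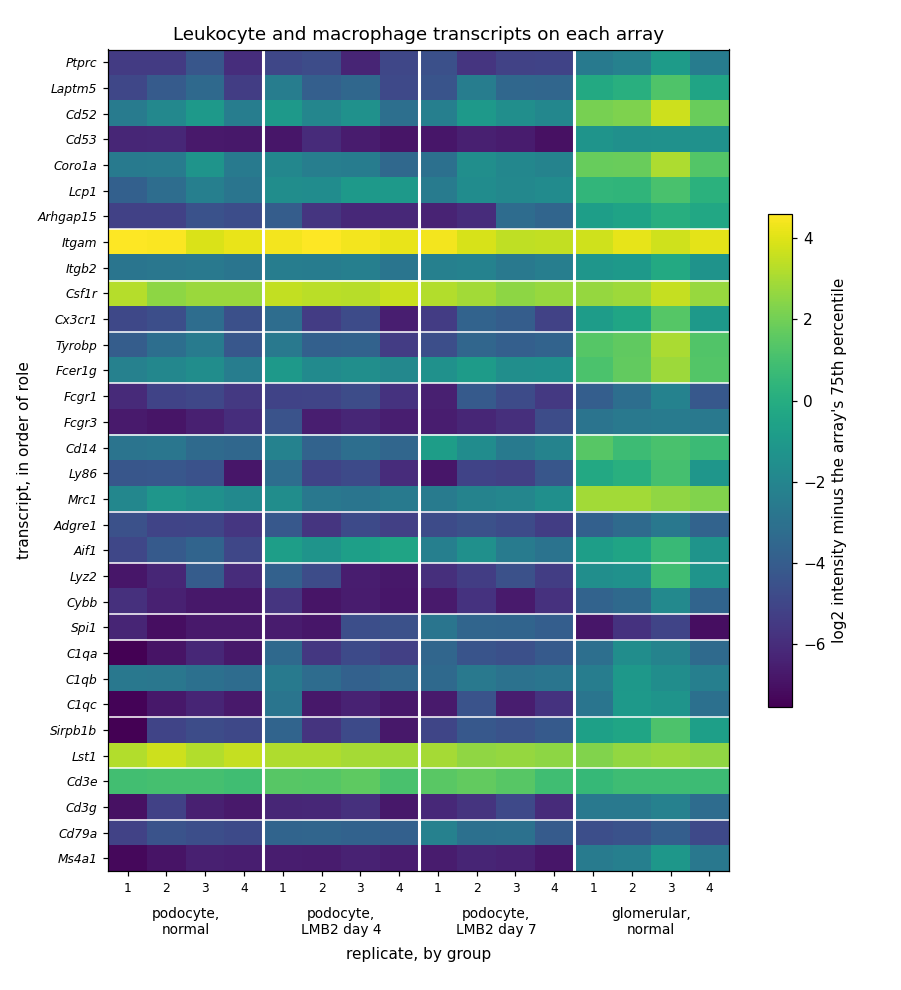
Level of each of the 32 transcripts (rows, in order of role) on each of the 16 arrays (columns, replicates 1 to 4 of each group), as log2 intensity minus the array's 75th percentile. The glomerular columns are the brightest for most rows, Itgam, Csf1r, Lst1 and Cd3e change little across the columns, and Aif1 and Spi1 stand out on the LMB2 arrays.

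Promoters are shown for 3 genes. Most of the set differed between podocyte and glomerular RNA together, and Spi1, whose factor binds an ETS core, is itself one of the 32. Spi1 was well above background on no array of either group, and a part of Spi1 in that difference was not tested. Aif1 was higher at both days after LMB2, and Cd53 and Laptm5 did not pass the test in any LMB2 comparison. RefSeq promoters of the GRCm38.p6 build matched 22 of the 32 genes, with 27 start sites, and the 250 bases before each start are given 5′ to 3′ on the gene's strand. Capitals mark GAGGAA, a form of the ETS core, on either strand (TTCCTC on the other). Other forms of that core were not searched for.
Aif1, minus strand, chr17:35176053-35176302: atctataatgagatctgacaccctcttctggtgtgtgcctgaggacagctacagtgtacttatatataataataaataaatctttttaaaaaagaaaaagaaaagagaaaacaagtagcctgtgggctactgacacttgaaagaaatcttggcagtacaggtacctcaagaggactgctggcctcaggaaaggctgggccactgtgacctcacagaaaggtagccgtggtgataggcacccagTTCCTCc
Cd53, minus strand, chr3:106790150-106790399: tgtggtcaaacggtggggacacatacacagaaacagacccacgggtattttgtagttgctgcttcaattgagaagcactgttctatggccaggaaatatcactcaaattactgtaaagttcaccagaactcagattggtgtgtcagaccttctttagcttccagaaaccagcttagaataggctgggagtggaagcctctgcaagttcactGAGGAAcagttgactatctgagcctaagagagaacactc
Laptm5, plus strand, chr4:130913066-130913315: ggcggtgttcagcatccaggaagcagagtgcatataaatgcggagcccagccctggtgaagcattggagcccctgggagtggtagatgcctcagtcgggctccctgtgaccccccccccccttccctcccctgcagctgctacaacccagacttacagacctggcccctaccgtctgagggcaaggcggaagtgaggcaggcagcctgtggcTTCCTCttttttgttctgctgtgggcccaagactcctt
Each of the 3 holds 1 copy, 7 bases before the start in Aif1, 39 in Cd53 and 38 in Laptm5. No copy lay before the start sites of Lcp1, which was also higher at both days after LMB2. The same held for Fcer1g, Lyz2, Cx3cr1, Ly86 and Coro1a. Over all 27 start sites of the matched genes 13 (48.1%) held GAGGAA on either strand, against 23.3% of 32851 promoter windows of the same length. The Fcgr3 windows overlap and hold the same copy, which is counted for each. The AP-1 letters TGANTCA, where N is any base, were in 1 of the 27 (3.70%), that of Cybb, which holds no GAGGAA, against 6.75% of all windows. These are matches of letters and not measured binding.

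Leukocyte transcripts were far lower in podocyte RNA than in glomerular RNA. In normal mice 26 of the 32 genes were lower in podocyte RNA (limma, Benjamini-Hochberg adjusted p under 0.05 over all 14574 genes), where 27.5% of all genes were lower. The median difference of the 32 was -3.90, against 0.38 over all genes, and -3.02 with the 10 genes that only allow a bound set at that bound. Sirpb1b, Arhgap15, Tyrobp and Fcer1g had been among the largest falls in earlier results of these arrays, and 15 of the genes passed the filter through the glomerular arrays alone, so the count is not independent evidence of its direction. Of the 13 genes well above background on all arrays of both groups, 9 were lower, 1 was higher and 3 were not called. With the same filter on all genes, 2796 of 12619 were lower and 7350 higher. Podocyte RNA was HA-precipitated and glomerular RNA was not, so this difference cannot be told apart from that of the pulldown. For the LMB2 comparisons below, the number of cells of a type and the RNA per cell cannot be told apart in bulk RNA.

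**Figure D2:**
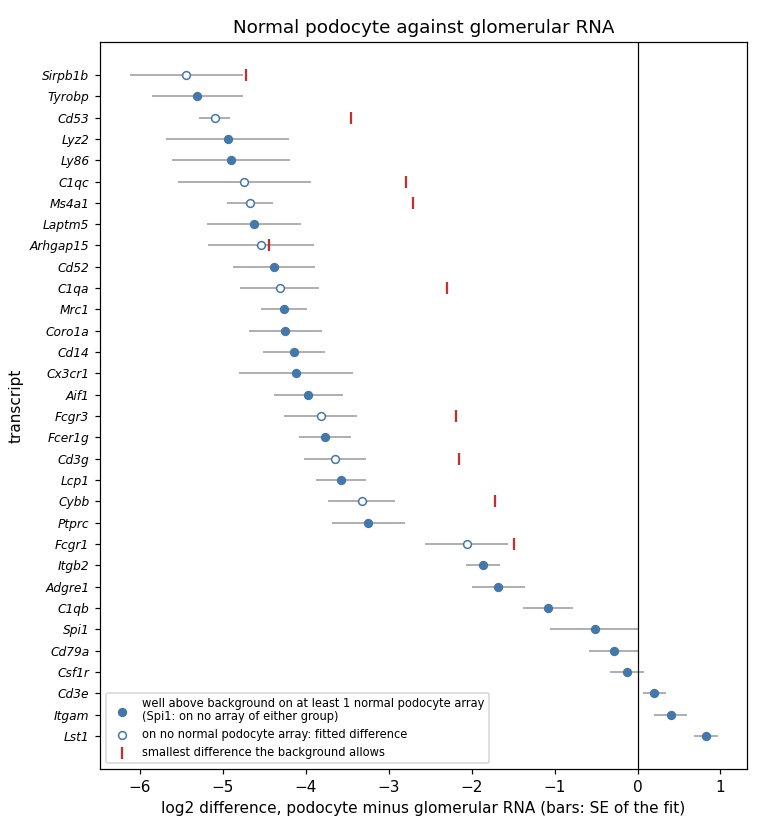
Difference of each transcript, normal podocyte minus glomerular RNA, with the SE of the fit. Open points are the 10 genes given as a bound because no podocyte array was well above background and glomerular arrays were. Red ticks mark the bound, set by the lowest signal that counted as well above background, which is not a strict limit. Only Lst1, Itgam and Cd3e lie right of 0, and of these Lst1 alone was called.

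The genes of nearly all leukocytes were lower in podocyte RNA in 7 of 7 cases, with log2 differences of -5.10 to -3.25. Cd52, a small lipid-anchored glycoprotein, had levels of -2.47, -1.87, -0.95 and -2.38 in normal podocyte RNA and 2.13, 2.25, 3.67 and 1.81 in glomerular RNA. The groups lay far apart, and replicate 3 was the highest array in both. The difference was -4.38 ± 0.50 (SE), a 20.8-fold lower level in podocyte RNA (adjusted p = 1.50e-06). Cd53, a tetraspanin of the leukocyte membrane, was well above background on no podocyte array, with -6.25, -6.18, -6.72 and -6.77, and on all glomerular arrays, with -1.26, -1.44, -1.41 and -1.42. It was at least 11-fold lower in podocyte RNA (adjusted p = 1.78e-10), with fitted means of -6.48 ± 0.31 and -1.38 ± 0.08 (SD). A bound of this kind sets the glomerular mean against the lowest signal that counted as well above background on each podocyte array. The gene's own signal was used where it was higher. Some brighter spots were not counted as well above background, such as Fcgr3 on day 4 replicate 1 (-4.41, lowest such signal -4.60). The words "at least" are therefore relative to that lowest signal in all bounds and do not give a strict minimum. Ptprc, the CD45 phosphatase that defines leukocytes, differed by -3.25 ± 0.44 (adjusted p = 9.41e-06). Laptm5, a lysosomal membrane protein, differed by -4.62, the actin-binding Coro1a by -4.25 and the actin-bundling Lcp1 by -3.58. Arhgap15, a GTPase-activating protein for Rac, was at least 21.8-fold lower.

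The adaptor Tyrobp had the largest difference of the genes not given as a bound. Tyrobp, Sirpb1b and Fcer1g were among the largest falls in earlier results of these arrays, so their p-values here are not independent evidence. Sirpb1b was also tested through its glomerular arrays alone. Tyrobp, also called DAP12, had -3.97, -3.17, -2.48 and -4.24 in normal podocyte RNA, against 1.39, 1.62, 3.07 and 1.28 in glomerular RNA. All podocyte arrays were below all glomerular arrays, and the difference was -5.31 ± 0.55, or 39.6-fold lower (adjusted p = 6.29e-07). Sirpb1b, a signal-regulatory receptor, had -7.54, -5.07, -4.74 and -4.90 in podocyte RNA, none well above background, against -0.63, -0.39, 1.20 and -0.67 in glomerular RNA. Its fitted difference was -5.44 ± 0.69 and its bound at least 26.3-fold lower (adjusted p = 4.38e-06), the largest bound of the 10. Fcer1g, the signalling chain shared by several Fc receptors, had -2.20, -1.93, -1.59 and -2.38 in podocyte RNA and 1.17, 1.69, 2.81 and 1.33 in glomerular RNA. It was 13.6-fold lower in podocyte RNA, a difference of -3.77 ± 0.31 (adjusted p = 6.67e-08).

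The Fc receptors themselves were seen in glomerular RNA and not in normal podocyte RNA. Fcgr1, the high-affinity IgG receptor, had -6.12, -5.08, -4.95 and -5.52 in podocyte RNA, well above background on no array, against -3.93, -3.14, -2.14 and -4.22 in glomerular RNA. Its bound was at least 2.80-fold lower (adjusted p = 0.00167), the smallest of the 10 bounds. Fcgr3, a low-affinity IgG receptor, was at least 4.55-fold lower. Of the pattern recognition and lectin receptors, Cd14, a co-receptor for lipopolysaccharide, differed by -4.14 ± 0.37, Ly86, a partner of a Toll-like receptor homologue, by -4.90 ± 0.72, and Mrc1, the mannose receptor, by -4.26 ± 0.28. Mrc1 was well above background on all 8 of these arrays and was 19.2-fold lower in podocyte RNA. Cx3cr1, the receptor for fractalkine, differed by -4.12 ± 0.68 (adjusted p = 6.60e-05). A second Cx3cr1 probe, well above background on no normal podocyte array, gave a fitted difference of -2.66.

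Macrophage products were lower too. Lyz2, lysozyme of macrophages and neutrophils, had -6.82, -6.23, -4.00 and -5.99 in podocyte RNA, where only replicate 3 was well above background, against -1.53, -1.39, 0.88 and -1.24 in glomerular RNA. Replicate 3 was the highest array of both groups, and the difference was -4.94 ± 0.74 (adjusted p = 2.47e-05). Cybb, the catalytic subunit of the phagocyte NADPH oxidase, was at least 3.29-fold lower. Adgre1, a surface receptor widely used as a macrophage marker, differed by -1.68 ± 0.32 and Aif1, a calcium-binding protein of macrophages also called IBA1, by -3.97 ± 0.42. A second Adgre1 probe, well above background on no normal podocyte array, gave a fitted difference of -4.24, so the size of the Adgre1 fall depends on the probe.

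The 3 chains of complement C1q, which bind antibody and start the classical pathway, were all called lower. C1qb had -2.67, -2.74, -3.06 and -3.25 in podocyte RNA and -2.40, -1.09, -1.60 and -2.30 in glomerular RNA. The groups lay close together, with glomerular replicates 1 and 4 nearest to the podocyte arrays, and the difference was -1.08 ± 0.31 (adjusted p = 0.00474). C1qa was at least 4.93-fold lower and C1qc at least 6.94-fold lower, each well above background on no podocyte array. Glomerular replicates 2 and 3 were higher than replicates 1 and 4 for all 3 chains. Among the lymphocyte genes, Cd3g, a chain of the T cell receptor complex, was at least 4.44-fold lower and Ms4a1, the B cell antigen CD20, at least 6.51-fold lower.

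A few genes did not follow the rest. Itgam, the alpha chain of the integrin CD11b/CD18, had 4.60, 4.55, 3.90 and 4.21 in normal podocyte RNA and 3.71, 4.13, 3.73 and 4.09 in glomerular RNA. The groups overlapped, and the difference of 0.40 ± 0.20 was not called (adjusted p = 0.0843). Its beta chain partner Itgb2 was 3.64-fold lower in podocyte RNA, a difference of -1.86 ± 0.20 (adjusted p = 1.05e-06). A second Itgam probe, well above background on all 16 arrays, gave -0.61 (adjusted p = 0.0244), and 1 more was too dim to test. They averaged -3.53 and -4.91 in normal podocyte RNA, against 4.31 for the first Itgam probe, so the level of Itgam depends on the probe. Without normal podocyte replicate 3 the first probe was called, at 0.54 (adjusted p = 0.0272).

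Csf1r, the growth factor receptor that macrophages need to survive, had 3.23, 2.53, 2.78 and 2.77 in podocyte RNA and 2.70, 2.83, 3.54 and 2.74 in glomerular RNA. Except for podocyte replicate 1 and glomerular replicate 3, all arrays lay close together, and the difference was -0.13 ± 0.20 (adjusted p = 0.572). Its other probes gave 0.05 and 0.08, so none of the 3 Csf1r probes showed the fall seen for the other macrophage genes. Those other probes averaged -1.90 and -0.97 in normal podocyte RNA, against 2.83 for the first, so the level of Csf1r depends on the probe. With quantile normalization the Csf1r difference was -0.49 (adjusted p = 0.0388). Cd3e, a signalling chain of the T cell receptor complex, had 0.93, 1.01, 1.03 and 0.85 in podocyte RNA and 0.59, 0.81, 0.84 and 0.76 in glomerular RNA. All podocyte arrays lay above all glomerular arrays, by a difference of 0.20 ± 0.14 that was not called (adjusted p = 0.204) and that was called with replicate number as a block (adjusted p = 0.0434). Cd79a, a chain of the B cell receptor, had -5.15, -4.44, -4.61 and -4.80 in podocyte RNA and -4.62, -4.48, -3.92 and -4.86 in glomerular RNA, well above background on 1 and 3 arrays. The groups overlapped and the difference was -0.28 ± 0.30 (adjusted p = 0.404). Spi1 was well above background on no array of either group.

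Lst1, a small leukocyte protein encoded in the major histocompatibility complex, was the 1 gene of the 32 called higher in podocyte RNA, where 51.5% of all genes were higher. It had 3.21, 3.69, 3.19 and 3.51 in podocyte RNA and 2.29, 2.65, 2.78 and 2.59 in glomerular RNA. All podocyte arrays lay above all glomerular arrays, and the difference was 0.82 ± 0.14 (adjusted p = 9.33e-05). Its second probe, also well above background on all 16 arrays, pointed the other way, with a difference of -1.41 (adjusted p = 0.000343). No direction for Lst1 follows from these probes.

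After LMB2 some of the 32 genes were higher than in normal podocyte RNA, a few were lower and most were not called. On day 4, 6 were higher than in normal podocyte RNA (12.3% of all genes were) and 1 was lower (19.9% of all genes were). On day 7, 7 were higher (21.8% of all genes) and 2 were lower (36.4% of all genes), so the share that was higher on day 7 was near that of all genes. With normexp background correction 11 were higher on day 7 (3660 of all 14574 genes were), with Cd53, Arhgap15, Fcgr3 and Cd3g added. With each array's median set to 0, 2026 of all genes were higher and 2087 lower on day 4, against 1795 and 2904 with the 75th percentile. Both comparisons share the normal podocyte arrays, and 5 genes were higher at both days: Aif1, Lcp1, C1qa, Cd79a and Cd3e. Median differences of the 32 were 0.21 on day 4 and 0.26 on day 7, against -0.12 and -0.14 over all genes. In all, 21 of the 32 were called in no LMB2 comparison, with differences from normal podocyte RNA of -0.64 to 1.11 on day 4 and of -0.45 to 1.13 on day 7.

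**Figure D3:**
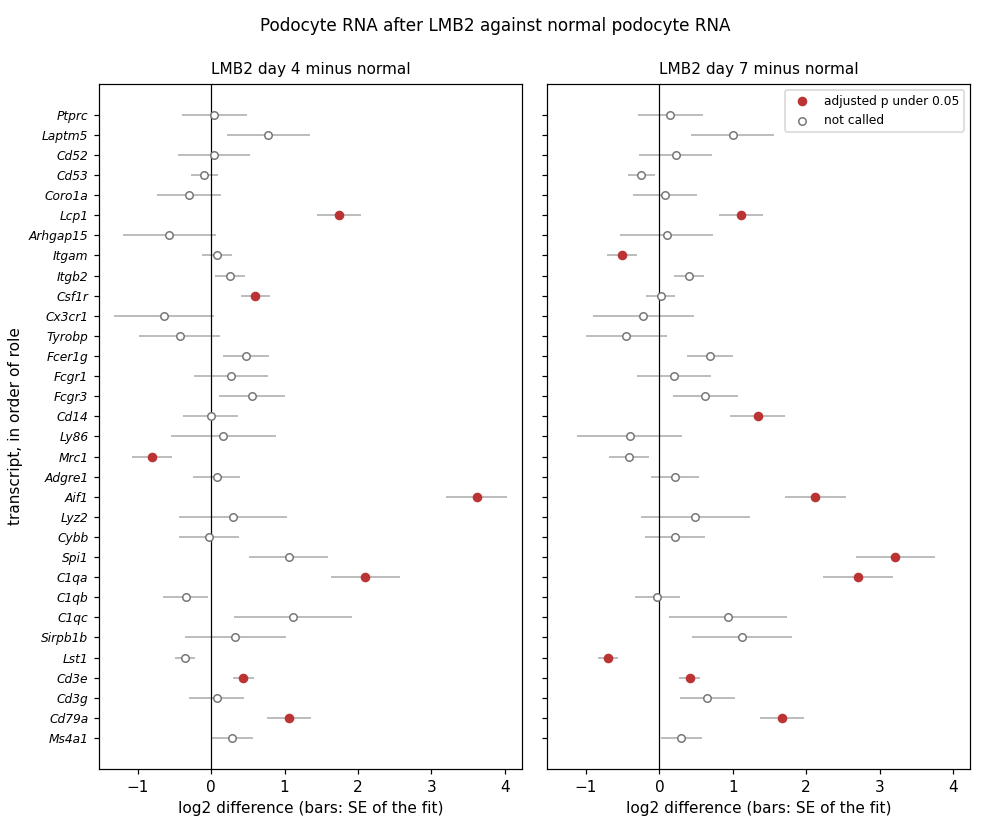
Difference of each transcript from normal podocyte RNA on day 4 (left) and day 7 (right) after LMB2, with the SE of the fit, and with filled points where the adjusted p was under 0.05. Aif1 lies at 3.62 on day 4 and 2.12 on day 7. The Spi1 and C1qa points are fitted values against normal arrays that were not well above background, and the open points are the genes not called.

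Aif1 was higher at both days. It had -4.97, -4.11, -3.61 and -4.95 in normal podocyte RNA, -0.75, -1.25, -0.69 and -0.47 on day 4, -2.28, -1.46, -2.47 and -2.94 on day 7 and -0.76, -0.44, 0.69 and -1.24 in glomerular RNA. Every LMB2 array lay above every normal podocyte array, every day 4 array lay above every day 7 array, and the day 4 arrays overlapped the glomerular ones. The difference from normal was 3.62 ± 0.42 on day 4, a 12.3-fold higher level (adjusted p = 1.39e-05), and 2.12 ± 0.42 on day 7, 4.35-fold higher (adjusted p = 0.000524). One of the normal podocyte arrays was not well above background for Aif1. Day 7 was 2.83-fold lower than day 4, a difference of -1.50 ± 0.42 (adjusted p = 0.0129). Adgre1, the other macrophage marker of the list, differed from normal by 0.08 ± 0.32 on day 4 and 0.21 ± 0.32 on day 7 and was not called. Its second probe gave 0.76 and 0.14, not called either.

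Lcp1 was higher at both days. It had -3.81, -3.20, -2.30 and -2.84 in normal podocyte RNA, -1.58, -1.63, -1.03 and -0.98 on day 4, -2.48, -1.65, -1.90 and -1.67 on day 7 and 0.47, 0.38, 1.09 and 0.22 in glomerular RNA. The day 4 arrays lay above all normal ones, 1 day 7 array overlapped them, and all LMB2 arrays stayed below the glomerular arrays. The difference was 1.74 ± 0.30 on day 4 (adjusted p = 0.000544) and 1.11 ± 0.30 on day 7 (adjusted p = 0.00526). A second probe gave 2.51 and 1.90. The other 6 pan-leukocyte genes were not called at either day: on day 7 the differences were 0.15 ± 0.44 for Ptprc, 0.22 ± 0.50 for Cd52, -0.25 ± 0.18 for Cd53, 0.07 ± 0.44 for Coro1a, 0.10 ± 0.64 for Arhgap15 and 1.00 ± 0.57 for Laptm5. Cd52 had -1.04, -1.95, -1.39 and -3.13 on day 4 and -2.32, -1.0, -1.53 and -1.94 on day 7, which overlap the normal podocyte values and lie far below the glomerular ones.

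**Figure D4:**
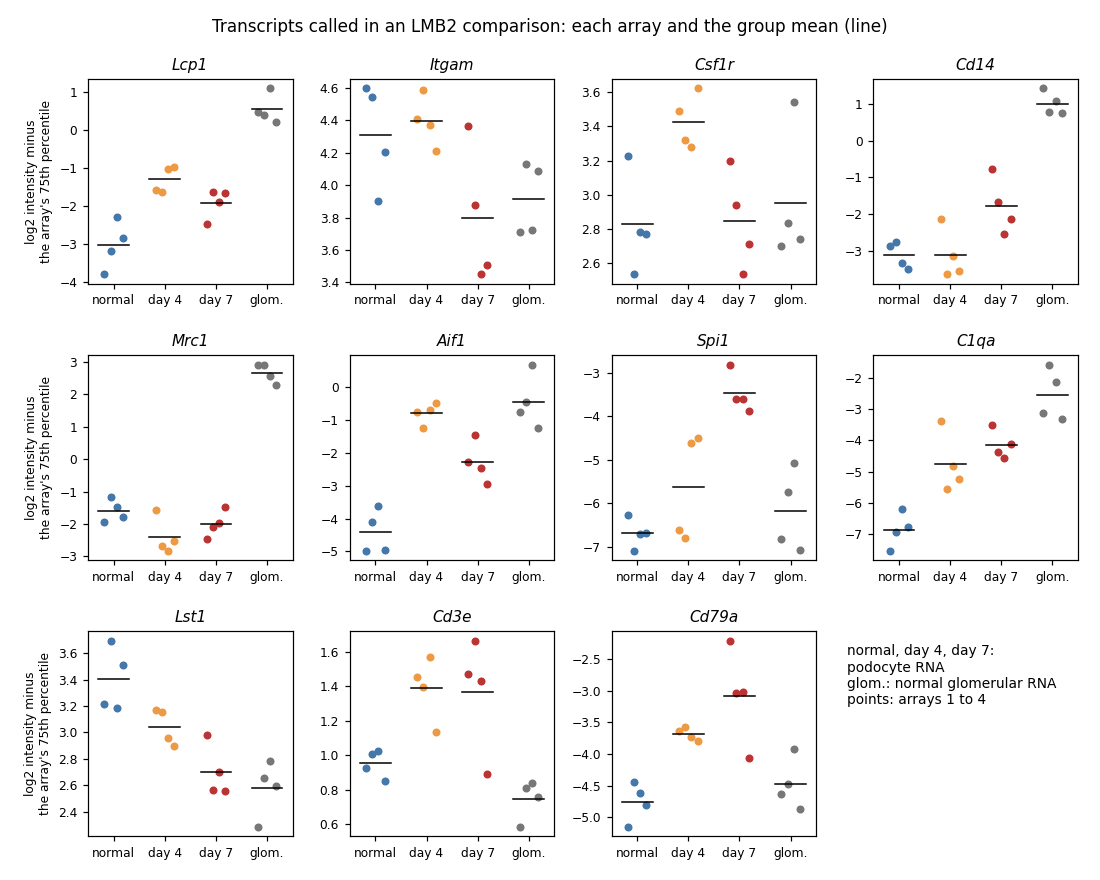
Level on each array of the 11 transcripts called in at least 1 LMB2 comparison, as log2 intensity minus the array's 75th percentile, with lines at the group means. The vertical scale differs between panels. Aif1 is highest on day 4 among the podocyte groups and Spi1 on day 7.

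Spi1, the myeloid transcription factor, was seen on day 7 alone. It had -6.28, -7.09, -6.72 and -6.69 in normal podocyte RNA, -6.62, -6.80, -4.62 and -4.51 on day 4, -2.82, -3.60, -3.61 and -3.89 on day 7 and -6.82, -5.74, -5.07 and -7.08 in glomerular RNA. All 4 day 7 arrays were well above background and none of the other 12 were. On day 4 replicates 3 and 4 lay apart from replicates 1 and 2. The day 7 level was at least 2.57-fold higher than normal (adjusted p = 0.000150, fitted difference 3.21 ± 0.54) and at least 2.09-fold higher than day 4 (adjusted p = 0.00743, fitted difference 2.16 ± 0.54). Spi1 was tested through its day 7 arrays alone, so the filter favoured a higher day 7 level. These p-values are therefore not independent evidence of that direction.

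Complement C1qa was higher at both days, from a level well above background on no normal podocyte array. It had -7.53, -6.92, -6.20 and -6.77 in normal podocyte RNA, -3.38, -5.56, -4.83 and -5.24 on day 4 and -3.52, -4.39, -4.55 and -4.12 on day 7. All LMB2 arrays lay above all normal ones, but only 1 of 4 day 4 arrays, replicate 1, and 2 of 4 day 7 arrays were well above background. The bounds were small, at least 1.06-fold higher on day 4 (adjusted p = 0.00385, fitted difference 2.10 ± 0.47) and at least 1.62-fold higher on day 7 (adjusted p = 0.000210, fitted difference 2.71 ± 0.47). C1qb differed by -0.34 ± 0.31 on day 4 and -0.03 ± 0.31 on day 7, with levels of -2.52, -3.24, -3.77 and -3.56 and -3.41, -2.65, -2.95 and -2.82, and was not called. C1qc differed by 1.11 ± 0.80 and 0.93 ± 0.80 and was not called, and on day 4 its replicate 1 stood far above the other arrays. The 3 chains therefore did not pass the test together.

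Cd14 was higher on day 7. It had -2.87, -2.76, -3.35 and -3.50 in normal podocyte RNA, -2.15, -3.65, -3.15 and -3.56 on day 4, -0.77, -1.66, -2.56 and -2.13 on day 7 and 1.43, 0.80, 1.1 and 0.75 in glomerular RNA. The day 7 arrays lay above the normal ones and below the glomerular ones, and day 4 replicate 1 fell among the day 7 arrays. The difference from normal was 1.34 ± 0.37 on day 7 (adjusted p = 0.00658) and -0.01 ± 0.37 on day 4 (adjusted p = 0.990). Mrc1 was lower on day 4, with -1.94, -1.16, -1.47 and -1.80 in normal podocyte RNA, -1.58, -2.68, -2.82 and -2.52 on day 4 and -2.47, -2.09, -1.97 and -1.48 on day 7. Day 4 replicate 1 lay among the normal arrays and the other 3 below them, and the difference was -0.81 ± 0.28 on day 4 (adjusted p = 0.0371) and -0.41 ± 0.28 on day 7 (adjusted p = 0.216). The day 4 call of Mrc1 was lost without normal replicate 2 or 3 or without day 4 replicate 2, 3 or 4 (adjusted p of 0.0761 to 0.110). Ly86 differed by 0.17 ± 0.72 and -0.41 ± 0.72 and was not called.

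The adaptors and Fc receptors were called at neither day with the 75th percentile and all groups in the fit. Fcer1g had -1.0, -1.75, -1.56 and -1.88 on day 4 and -1.41, -0.88, -1.55 and -1.50 on day 7, and its day 7 difference was 0.69 ± 0.31 (adjusted p = 0.0732), with all 4 day 7 arrays above the normal ones. Fcer1g was called on day 7 when arrays were centred on their medians (0.80, adjusted p = 0.0448), with the 2 groups alone in the fit (adjusted p = 0.0232) and with replicate number as a block (adjusted p = 0.0292). Tyrobp had -2.65, -3.82, -3.72 and -5.40 on day 4 and -4.64, -3.52, -3.84 and -3.66 on day 7, within the range of the normal arrays or below it, with differences of -0.43 ± 0.55 and -0.45 ± 0.55. Sirpb1b, which rests on dim spots, had -3.65, -5.72, -4.82 and -6.74 and -5.01, -4.19, -4.42 and -4.12, with differences of 0.33 ± 0.69 and 1.13 ± 0.69. Fcgr1 had -5.11, -5.03, -4.70 and -5.75 and -6.47, -4.10, -4.78 and -5.52, and Fcgr3 differed by 0.56 ± 0.45 and 0.63 ± 0.45. Neither Fc receptor was well above background on any LMB2 array, though Fcgr3 was called on day 7 with normexp correction (0.26, adjusted p = 0.0190) and with the block (adjusted p = 0.0462). Cybb was not either, with differences of -0.03 ± 0.41 and 0.22 ± 0.41, and Lyz2, with -3.79, -4.73, -6.56 and -6.77 on day 4 and -5.89, -5.34, -4.52 and -5.33 on day 7, was well above background on 1 of these 8 arrays. Cd53 had -6.80, -6.04, -6.61 and -6.85 on day 4 and -6.79, -6.49, -6.62 and -7.02 on day 7 and was well above background on none of them. Cx3cr1 differed by -0.64 ± 0.68 and -0.22 ± 0.68 and Itgb2 by 0.26 ± 0.20 and 0.41 ± 0.20, not called.

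Of the T cell genes and of the B cell genes, 1 each was called. Cd79a had -5.15, -4.44, -4.61 and -4.80 in normal podocyte RNA, -3.64, -3.57, -3.73 and -3.80 on day 4 and -2.21, -3.04, -3.02 and -4.06 on day 7. All LMB2 arrays were well above background and lay above all normal podocyte arrays, of which 1 was. The difference was 1.06 ± 0.30 on day 4 (adjusted p = 0.0149) and 1.67 ± 0.30 on day 7 (adjusted p = 0.000275). Ms4a1, the other B cell gene, was well above background on no podocyte array of the 3 groups and differed by 0.29 ± 0.28 and 0.30 ± 0.28. Cd3e had 1.45, 1.39, 1.57 and 1.13 on day 4 and 1.47, 1.66, 1.43 and 0.89 on day 7, where replicate 4 fell among the normal arrays. It was 1.35-fold higher on day 4 (adjusted p = 0.0310) and 1.33-fold higher on day 7 (adjusted p = 0.0229). The day 4 call was lost without normal replicate 1 or 4 or without day 4 replicate 1, 2 or 3 (adjusted p of 0.0553 to 0.0911), and the day 7 call without normal replicate 4 or day 7 replicate 1, 2 or 3 (0.0516 to 0.0800). Cd3g was well above background on no podocyte array, with differences of 0.07 ± 0.37 and 0.65 ± 0.37.

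Csf1r had 3.49, 3.32, 3.28 and 3.62 on day 4 and 3.20, 2.94, 2.53 and 2.71 on day 7. Its day 4 arrays lay just above the normal and the day 7 arrays, with a difference from normal of 0.60 ± 0.20 on day 4 (adjusted p = 0.0328) and 0.02 ± 0.20 on day 7. The other Csf1r probes gave 0.34 and -0.04 on day 4, neither called. Itgam had 4.41, 4.59, 4.37 and 4.21 on day 4 and 4.36, 3.88, 3.45 and 3.51 on day 7, where replicate 1 lay among the normal arrays. It was 1.43-fold lower on day 7 (difference -0.51 ± 0.20, adjusted p = 0.0413), while its second probe gave 0.19 (adjusted p = 0.496). The call of Csf1r on day 4 was lost without any 1 of normal replicates 2, 3 and 4 and day 4 replicates 1 and 4 (adjusted p of 0.0639 to 0.0953), and that of Itgam on day 7 without any 1 of normal replicates 1, 2 and 4 and day 7 replicates 2, 3 and 4 (0.0524 to 0.124). Lst1 had 3.17, 3.15, 2.96 and 2.90 on day 4 and 2.98, 2.57, 2.70 and 2.56 on day 7, all day 7 arrays below all normal ones. The difference was -0.70 ± 0.14 on day 7 (adjusted p = 0.000702), and its second probe again pointed the other way, with 1.41 (adjusted p = 0.000617).

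Between days 7 and 4, on 1 slide, 2 of the 32 were higher on day 7 (13.4% of all genes were) and 3 were lower (20.2% of all genes were). The higher ones were Spi1, above, and Cd14, with a difference of 1.35 ± 0.37 (adjusted p = 0.0128). The lower ones were Aif1, above, Itgam, with -0.60 ± 0.20 (adjusted p = 0.0344), and Csf1r, with -0.58 ± 0.20 (adjusted p = 0.0363). Lst1 did not pass (-0.34 ± 0.14, adjusted p = 0.0767), though its second probe gave 1.17 (adjusted p = 0.00600). One further Csf1r probe was -0.50 and another 0.21, and the second Itgam probe -0.04, none called. The Itgam call was lost without any 1 of day 7 replicates 2 to 4 and day 4 replicates 1 to 3 (adjusted p of 0.0547 to 0.0992), and the Csf1r call without any 1 of day 7 replicates 2 to 4 and day 4 replicates 1, 2 and 4 (0.0550 to 0.101). Mrc1 was called without day 4 replicate 1 (0.67, adjusted p = 0.0461), Lst1 without day 7 replicate 1 (adjusted p = 0.0361) and Cd79a without day 7 replicate 4 (0.93, adjusted p = 0.0116). The median of the 32 was 0.17, against -0.06 over all genes.

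The arrays of 1 group were not alike for these genes. Glomerular replicate 3 was the highest of its group for 25 of the 32 genes, and normal podocyte replicate 3 was the highest of its group for 18, 16 of them the same genes. Day 4 replicate 1 was the highest of its group for 19 genes. The mean level over the 32 genes ran from -3.99 to -3.35 on the normal podocyte arrays, -3.83 to -2.68 on day 4, -3.46 to -2.96 on day 7 and -1.02 to 0.18 on the glomerular arrays. Day 4 replicate 1 also stood apart in other lists. The mean over 6 red blood cell genes was 0.36 there, against -2.70 to -1.92 on the other day 4 arrays, and over 20 proximal tubule genes 3.19, against -0.11 to 1.08. Day 7 replicate 4 was high for proximal tubule genes, at 3.80, and not for the 32. Without day 4 replicate 1, 4 of the 32 were higher on day 4: Csf1r (adjusted p = 0.0677) and Cd3e (adjusted p = 0.0681) were no longer called.

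**Figure D5:**
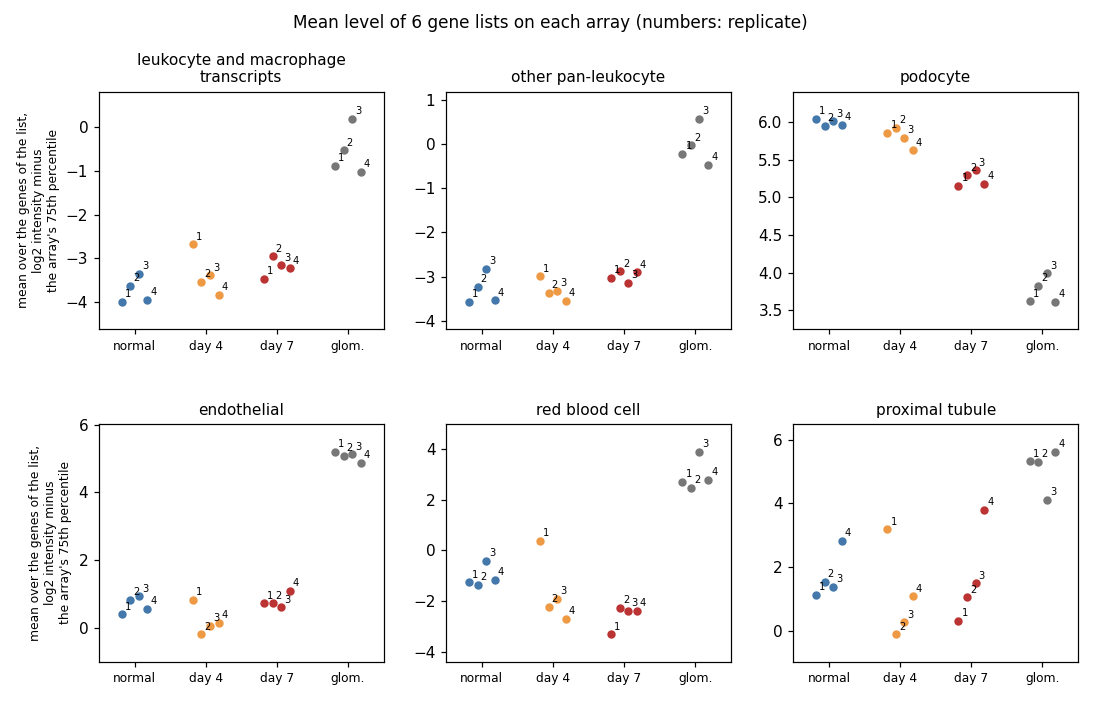
Mean level over the genes of 6 lists on each array, as log2 intensity minus the array's 75th percentile, with the replicate number beside each point. The 32 leukocyte and macrophage transcripts average at most -2.68 on every podocyte array and at least -1.02 on every glomerular array, and day 4 replicate 1 is the highest of its group for the leukocyte, endothelial, red blood cell and proximal tubule lists.

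Other lists give the setting. All 25 podocyte genes were higher in normal podocyte RNA than in glomerular RNA, and all 20 endothelial, 20 proximal tubule and 6 red blood cell genes were lower, as were 16 of 17 mesangial and smooth muscle genes. Over all genes 51.5% were higher and 27.5% lower. The summed linear level of the endothelial list, in units of the 75th percentile, ran from 67.1 to 116 on the normal podocyte arrays and from 1225 to 1517 on the glomerular arrays, and no defining gene was at 0. The part of RNA from other cells in the leukocyte levels of podocyte RNA was not tested. On day 7, 21.8% of all genes were higher and 36.4% lower than in normal podocyte RNA. Of 25 podocyte genes 18 were lower and 1 was higher on day 7, and 5 of 6 red blood cell genes were lower. Of 20 endothelial genes 4 were higher and 2 lower, and no proximal tubule gene was called. Of 17 mesangial and smooth muscle genes 6 were higher and none was lower on day 7. Among them were Tagln, an actin-binding protein of smooth muscle, with 6.01 ± 0.25, and the intermediate filament gene Des, with 3.02 ± 0.16. That list summed to 1126 to 1449 on day 7, against 167 to 197 on the normal podocyte arrays. The red blood cell list summed to 2.99 to 6.52 on day 7, against 10.9 to 21.1 on the normal podocyte arrays. The part of blood content or slide in the leukocyte differences after LMB2 was not tested.

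The lists below are set against all genes, of which 27.5% were lower in podocyte than in glomerular RNA. After LMB2 12.3% of all genes were higher and 19.9% lower on day 4, and 21.8% higher and 36.4% lower on day 7. Of 24 other pan-leukocyte genes, all were lower in podocyte RNA, 2 were higher on day 4, and 4 were higher and 1 lower on day 7. Ptpn6, the phosphatase SHP-1, was among the higher ones at both days, with 1.07 ± 0.21 on day 4 and 1.85 ± 0.21 on day 7 (adjusted p = 0.00127 and 3.49e-06). Of 29 other myeloid genes, 25 were lower in podocyte RNA, 4 were higher and 3 lower on day 4, and 6 were higher and 2 lower on day 7. Gpnmb, a membrane glycoprotein of activated macrophages and other cells, was at least 5.71-fold higher on day 4 and at least 4.93-fold higher on day 7, from a level well above background on no normal podocyte or glomerular array. Tlr2, a receptor for bacterial lipoproteins, differed by 0.91 ± 0.21 on day 4 and 3.83 ± 0.21 on day 7 (adjusted p = 3.67e-09), and by 2.93 ± 0.21 between days 7 and 4. Slc11a1, a metal transporter of phagosomes, was at least 2.88-fold higher on day 4 and at least 1.81-fold higher on day 7.

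Of 12 antigen presenting and dendritic genes 3 were higher on day 4 and 5 on day 7, and none was lower. For this and the next lists, 12.3% of all genes were higher on day 4 and 21.8% on day 7. The shares of all genes that were lower were 19.9% and 36.4%. Itgax, the alpha chain CD11c, was at least 2.82-fold higher on day 4 and at least 5.29-fold higher on day 7. Flt3, a growth factor receptor of dendritic cell precursors, differed by 2.73 ± 0.35 and 2.79 ± 0.35, and H2-DMa, which loads peptide onto class II molecules, by 2.06 ± 0.25 and 1.44 ± 0.25. Of 10 neutrophil genes none was called on day 4 and 3 were higher on day 7, among them S100a8, a calcium-binding protein, with 2.79 ± 1.00 (adjusted p = 0.0267), and Hdc, histidine decarboxylase, with 2.30 ± 0.42. Of 18 T and NK cell genes 3 were higher and 1 lower on day 4, and 6 higher and 2 lower on day 7. Cd3d, another chain of the T cell receptor complex, was at least 4.70-fold higher on day 4 and at least 4.69-fold higher on day 7, and Lck, a T cell kinase, differed by 1.70 ± 0.21 on day 7. The lower ones on day 7 were Gzma, a granzyme of cytotoxic cells, with -1.20 ± 0.44, and Cd5, a T cell surface receptor, with -0.99 ± 0.34. The lower one on day 4, the T cell kinase Zap70, was well above background on no array of either group. Of 7 B and plasma cell genes Cd79b, the partner chain of Cd79a, was higher, by 2.40 ± 0.50 on day 4 and 3.34 ± 0.50 on day 7 (adjusted p = 5.77e-05), and Cd22, an inhibitory B cell receptor, was lower, by -0.78 ± 0.15 and -1.08 ± 0.15. Of 6 platelet genes Itga2b, the platelet integrin alpha chain, was higher, at least 3.90-fold on day 4 and at least 2.16-fold on day 7. In each of these 7 lists of leukocyte and platelet genes those not called outnumbered those called at each LMB2 time.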

How the data were processed

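RNA of 16 samples, 4 in each of 4 groups, was measured on 1-colour Agilent arrays read with Feature Extraction 11.5.1.1, per the submitters' processing notes. The deposited files hold a processed intensity per spot on a linear scale, background-subtracted by that program and not normalized between arrays, per the file headers, with flags for spots well above background. The authors' deposited log2 table covers 39430 probes. A constant added to 1 array's log2 intensity gave each of its 16 columns exactly, but 6 columns (replicates 1 to 3 of both normal groups) matched a different replicate of their group, so the scanner files' labels were used. Array scale ran from 226 to 412 intensity units at the 75th percentile, and the number of arrays limits the precision.

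Control and outlying spots were left out and spots of 1 probe averaged, giving 55681 probes. RefSeq accessions named 26582 of them, 20145 genes. Levels (log2 intensity with the 75th percentile of the array subtracted) were tested with limma 3.58.1 in R 4.3.3 (lmFit, eBayes, 12 residual degrees of freedom), with Benjamini-Hochberg adjustment over 14574 genes and calls at an adjusted p under 0.05. A probe was kept when it exceeded background on every array of 1 or more groups, and each gene was represented by its kept probe of highest mean level. A gene well above background on no array of 1 group is given as a bound. Same-numbered podocyte and glomerular arrays of normal mice deviated together (correlations of 0.42 to 0.51), which is taken as pairing for this comparison alone. The fit held group only, so the SEs and p-values given leave this pairing out. Replicate number as a block was run as an alternative for every comparison. In the other comparisons the correlations of same-numbered arrays ran from -0.41 to 0.49, and these are not taken as paired. The fit was tested on simulated data.

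The 32 genes and all other lists were chosen with earlier results of these data known. By rule, every one of the 32 is named, array values are given for those called in an LMB2 comparison, for the 3 largest and 3 smallest podocyte and glomerular differences and for the gene of highest mean level in each role, and genes of other lists are named only where called in an LMB2 comparison or as podocyte or endothelial markers. One such result is not reported here. Alternatives were another background correction, other scalings, other filters, probe rules, fits, the replicate block, the authors' table and leaving out each array.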

Additional observations from a re-analysis of the deposited data

Results flagged for a closer look

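In 11 of 128 groups of 4 arrays, 1 array lay far from the other 3 by Dixon's test. Chance gives about 1 such group in 20. Normal podocyte arrays stood apart for Coro1a (replicate 3 at -1.26, the others -2.60 to -2.48), Ly86 (replicate 4 at -6.80, the others -4.50 to -4.22) and Sirpb1b (replicate 1 at -7.54, the others -5.07 to -4.74). Day 4 arrays stood apart for Fcgr3 (replicate 1 at -4.41, the others -6.52 to -6.26), C1qc (replicate 1 at -2.81, the others -6.77 to -6.37) and Ptprc (replicate 3 at -6.27, the others -4.96 to -4.74). Most of these spots were not well above background. Glomerular replicate 3 stood above the others for Csf1r (3.54, the others 2.70 to 2.83), Lyz2 (0.88, the others -1.53 to -1.24), Cybb (-1.82, the others -3.69 to -3.37) and Sirpb1b (1.20, the others -0.67 to -0.39), and replicate 1 for Cd53 (-1.26, the others -1.44 to -1.41).

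The LMB2 effect differed between days 7 and 4 for 5 genes by the limma test of that difference: Spi1 (2.16, adjusted p = 0.00743) and Cd14 (1.35, adjusted p = 0.0128) were higher on day 7, and Aif1 (-1.50, adjusted p = 0.0129), Itgam (-0.60, adjusted p = 0.0344) and Csf1r (-0.58, adjusted p = 0.0363) were lower.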

How the results depend on the processing

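Leaving out each array in turn kept the count of genes lower in podocyte than in glomerular RNA at 26 to 26, and gave 4 to 5 higher on day 4, 6 to 8 higher on day 7 and 2 to 3 higher on day 7 than on day 4. With only genes well above background on all arrays of both groups compared, which tests fewer genes, these counts were 9 of 13, 3 of 12, 3 of 12 and 1 of 14. Over all genes so tested they were 2796 of 12619, 1256 of 12423, 2378 of 12438 and 1688 of 12725. With normexp background correction and the 75th percentile 11 were higher on day 7, and the median podocyte and glomerular difference was -1.14 (-1.08 with quantile normalization too). The normexp settings added 50 units to every corrected intensity, where median processed intensities of the normal arrays were 13.6 to 21.9. The part of that offset in the smaller difference was not tested. With only the 2 LMB2 groups in the fit, 1 gene was higher on day 7 than on day 4. With replicate number as a block 1 was, and Spi1 (adjusted p = 0.0715), Itgam (0.0679) and Aif1 (0.0549) were lost there. The block also took C1qa (0.0557), Cd3e (0.0517) and Mrc1 (0.159) on day 4 and Cd3e (0.0608) on day 7, and added Fcer1g (0.0292), Sirpb1b (0.0447) and Fcgr3 (0.0462) on day 7. It added Cd3e to the podocyte and glomerular calls (0.0434) and changed no other call of that paired comparison. Over all genes it called 1071 lower on day 4 (2904 without) and, on day 7 against day 4, 1296 higher and 1709 lower (1955 and 2946 without). Quantile normalization took Cd79a on day 4 (0.79, adjusted p = 0.0535), Itgam on day 7 (0.129) and Csf1r on day 7 against day 4 (0.0708), and added Csf1r to the podocyte and glomerular calls (0.0388). Normexp with quantile normalization took Cd79a (0.171) and C1qa (0.172) on day 4, Lcp1 (0.0536) and Itgam (0.140) on day 7 and Itgam (0.0680) and Csf1r (0.0649) on day 7 against day 4, and added Csf1r (0.0254) in podocyte against glomerular RNA. Normexp with the 75th percentile took Fcgr1 in podocyte against glomerular RNA (-0.34, adjusted p = 0.0625) and Mrc1 on day 4 (0.0936), and added Spi1 (0.0153) and Lst1 (0.0399) on day 4 and Cd53 (0.0467), Arhgap15 (0.0308), Fcgr3 (0.0190) and Cd3g (0.0236) on day 7. Cd53 was then 0.21 on day 7, with the sign turned from -0.25. With the array median at 0, Mrc1 on day 4 (0.0567), Itgam on day 7 (0.107) and Csf1r on day 7 against day 4 (0.0525) were lost and Itgb2 (0.0443) and Fcer1g (0.0448) added on day 7. Without the filter on dim probes Mrc1 on day 4 (0.0538), Itgam on day 7 (0.0584) and both Itgam (0.0519) and Csf1r (0.0544) between the days were lost. With the 2 groups alone Mrc1 on day 4 (0.0717), Itgam (0.102) and Cd3e (0.0652) on day 7 and Cd14 (0.0534) and Itgam (0.0590) between the days were lost, and Itgb2 (0.0204) and Fcer1g (0.0232) were added on day 7. With probes averaged Csf1r on day 4 (0.165), Itgam on day 7 (0.420) and both between the days (0.169 and 0.149) were lost. The median over all genes in podocyte against glomerular RNA was 0.17 to 0.29 under the normexp and quantile settings, against 0.38.

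For 3 genes direction turned with the probe. Lst1 was -0.29 with probes averaged and -1.41 by its other probe in podocyte against glomerular RNA, and 0.36 and 1.41 on day 7. Csf1r was -0.0446 on day 4 and 0.21 on day 7 against day 4 by another probe, and Itgam 0.19 on day 7 by its other probe. Leaving out single arrays also called Lst1 on day 4 (adjusted p = 0.0460, without normal replicate 3), and Fcer1g (adjusted p = 0.0482, same array) and Cd3g (1.03, adjusted p = 0.0131, without normal replicate 2) on day 7. Slide as a block was not run for the LMB2 comparisons, since each slide holds either LMB2 or normal arrays. The single-probe fits and the bounds were chosen after seeing the data. Genes well above background on no array of a group are limited by background, not by spread.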
